A study of Mus musculus with 10 samples.

Results

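Guanylate-binding proteins (GBP) and immunity-related GTPases (IRG) are GTPase families of cell-autonomous defence. Their genes are among the most strongly interferon-inducible genes of the mouse. The 10 members described here were taken by symbol: the GBP genes Gbp2, Gbp3, Gbp4, Gbp5, Gbp7 and Gbp9 and the IRG genes Igtp, Irgm1, Irgm2 and Iigp1. All 10 were found among the 55367 genes of the deposited table and all 10 passed the filter on low counts, as did 15126 genes in all. RNA had been sequenced from bone marrow cells, labelled BMMC, of mice given regular water or 1% α-ketoglutarate (α-KG), an intermediate of the tricarboxylic acid cycle, in the drinking water. Each group held 5 libraries, called water 1 to 5 and α-KG 1 to 5 here, and the shared numbers pair nothing. The labels give no genotype, strain, sex, age or length of treatment for the mice. Nothing in them ties a library to a separate animal, and the p-values therefore describe library-to-library spread, which may be technical.

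Interferon gamma binds a receptor built from Ifngr1 and Ifngr2, whose kinases Jak1 and Jak2 start the signal to the nucleus. Genes induced by it carry gamma-activated sites (GAS), and the transcription factor Irf1, itself induced, binds interferon-stimulated response elements (ISRE). GBP proteins assemble on the membranes of bacteria and of vacuoles that hold pathogens. Among the IRG proteins, Irgm1, Irgm2 and Igtp (also called Irgm3) are regulators that guard the cell's own membranes, whereas Iigp1 (Irga6) is an effector that they hold in check.

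Promoter sequences, from 250 bases before to 50 after the RefSeq start (GRCm38.p6), were found for 7 members and are not given for Gbp4, Gbp9 and Iigp1. They are shown for the letters of these elements, and whether the members are induced through them was not tested. Each 80-base stretch is written 5′ to 3′ on the gene's strand, with capitals for matches to the GAS letters TTCNNNGAA or, on either strand, to the ISRE letters (GAAA, any 2 bases, GAAA). Matches of the same motif that overlap run together.
Gbp2, chr3:142620552-142620631, plus strand: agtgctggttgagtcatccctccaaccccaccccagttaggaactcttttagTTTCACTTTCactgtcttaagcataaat
Gbp3, chr3:142559964-142560043, plus strand: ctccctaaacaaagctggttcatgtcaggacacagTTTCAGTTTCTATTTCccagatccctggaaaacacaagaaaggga
Gbp5, chr3:142496734-142496813, plus strand: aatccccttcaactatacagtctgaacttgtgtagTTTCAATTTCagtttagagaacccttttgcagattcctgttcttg
Gbp7, chr3:142530221-142530300, plus strand: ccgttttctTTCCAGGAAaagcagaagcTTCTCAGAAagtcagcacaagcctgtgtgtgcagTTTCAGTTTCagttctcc
Igtp, chr11:58199476-58199555, plus strand: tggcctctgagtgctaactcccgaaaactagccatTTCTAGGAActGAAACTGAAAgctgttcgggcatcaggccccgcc
Irgm1, chr11:48871421-48871500, minus strand: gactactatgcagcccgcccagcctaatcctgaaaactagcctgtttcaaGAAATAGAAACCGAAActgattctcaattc
Irgm2, chr11:58214872-58214951, plus strand: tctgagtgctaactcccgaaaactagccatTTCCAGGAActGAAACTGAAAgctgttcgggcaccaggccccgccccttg

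ISRE letters were in the promoter of all 7 members with an entry, where 3.44% of 32851 mouse promoters of the same length hold them. Gbp3 has a pair of entries, and the matches are in the first. GAS letters were in 4 of the 7 (Gbp5, Gbp7, Igtp and Irgm2), against 8.3% of all promoters. Both motifs together were in the same 4, against 0.454%. In Gbp5 the GAS matches begin 245 and 52 bases before the start and lie outside the stretch shown. In Igtp and Irgm2 the ISRE match begins 11 bases after the GAS match begins, and the 80 bases around it are identical at 78 positions. Over all promoters, 5 hold this spacing, and all 5 belong to IRG family genes, the others being Tgtp1, Tgtp2 and Gm12185. The spacing was looked up after the matches had been seen. A match describes letters and does not show binding.

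**Figure D1:**
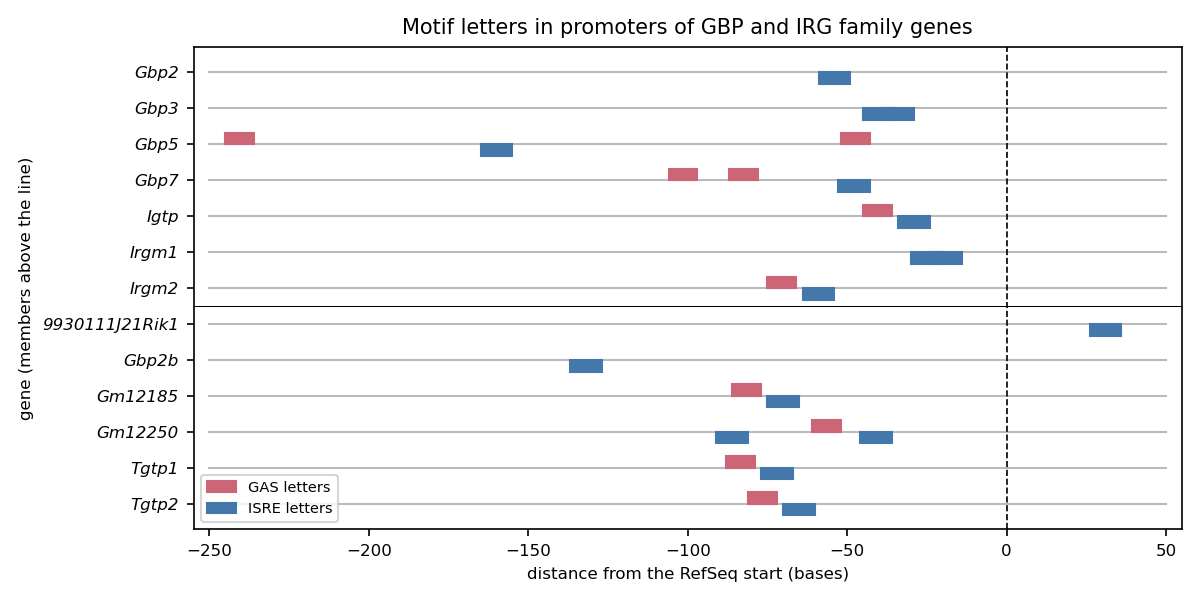
Positions of GAS letters (red) and ISRE letters (blue) on either strand, as distance in bases from the RefSeq start (dashed line), in promoters of GBP and IRG family genes that hold a match. The 7 members above the line all carry an ISRE match, and in Igtp and Irgm2, as in Tgtp1, Tgtp2 and Gm12185, an ISRE match begins 11 bases after a GAS match begins.

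The members lie on chromosomes 3, 5, 11 and 18 (GENCODE M21, build GRCm38), and all are annotated as protein-coding. Gbp5, Gbp7, Gbp3 and Gbp2 lie on chromosome 3 between positions 142493978 and 142638008. Gbp9 (105077630 to 105139539) and Gbp4 (105115767 to 105139586) overlap on the same strand of chromosome 5 and share 60 exon bases. Irgm1 lies on chromosome 11 (48861968 to 48871683), as do Igtp (58199556 to 58207591) and Irgm2 (58199618 to 58222782), which overlap on the same strand and share 162 exon bases. Iigp1 lies on chromosome 18 (60376027 to 60392634).

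In marrow, the IRG regulators Igtp and Irgm1 were the most abundant members per base of exon, with Irgm2 below Gbp7, and the order of levels was nearly the same in both groups. Igtp stood at 6.75 ± 1.11 CPM (counts per 1000000 counts of a library) per kilobase of exon in water (SD, n = 5), above Irgm1 at 4.01 ± 0.665 and Gbp7 at 2.66 ± 0.401. Each of these was above the next in level in at least 8 of 10 libraries. Irgm2 (2.01 ± 0.436), Gbp9 (1.65 ± 0.154), Gbp2 (1.44 ± 0.386) and Gbp3 (1.24 ± 0.204) formed a middle range in water. Irgm2 was above Gbp9, and Gbp2 above Gbp3, in 6 of 10 libraries (4 of 5 in water and 2 of 5 in α-KG). Over both groups these neighbours were thus not separated. Gbp4 at 0.746 ± 0.132, Gbp5 at 0.242 ± 0.0512 and Iigp1 at 0.0813 ± 0.0506 followed, each below the one before in all 10 libraries. In α-KG the only change of order was that Gbp9, at 2.48 ± 0.845, stood above Irgm2, at 2.20 ± 0.805. Iigp1 rested on 2 to 24 counts per library, so its values carry much counting error.

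None of the 10 members passed the test between α-KG and water (edgeR, adjusted p under 0.05). Of the 15126 genes, 2.73% passed it, 2.39% higher in α-KG and 0.344% lower. At an unadjusted p under 0.05 there were 2 members, Gbp3 and Gbp9, both higher in α-KG, where 27.8% of genes passed in either direction and 16.3% as higher. DESeq2 called 1 member, Gbp3 (adjusted p = 0.0328), where it called 10.4% of genes, 6.07% as higher. With limma voom 0 members were called, against 1.8% of genes, 1.52% as higher. The log2 fold change was above 0 for 7 of 10 members, with a median of 0.31, where 51.7% of all genes were above 0 and their median was 0.02. The groups overlapped for all 10 members, whereas all α-KG libraries lay above all water libraries for 3.64% of genes and below them for 2.01%.

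Gbp3 had the smallest p of the members. Its levels were 3.40, 4.12, 5.01, 4.27 and 3.43 CPM in water 1 to 5 and 6.26, 4.49, 6.14, 7.32 and 7.34 CPM in α-KG 1 to 5. Only α-KG 2 fell within the range of the water libraries. The means were 4.05 ± 0.666 and 6.31 ± 1.16 CPM (SD, n = 5), a log2 fold change of 0.63 ± 0.17 SE (edgeR, adjusted p = 0.0652, 95% interval 0.25 to 1.01). Without α-KG 2 the adjusted p of Gbp3 was 0.0148 and that of Gbp9 0.0321, in a fit that called 17.4% of genes, 10.5% as higher. Without water 3 it was 0.0478 for Gbp3, with 4.15% of genes called, 3.52% as higher.

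Gbp9 was at 9.06, 7.50, 9.52, 8.48 and 8.08 CPM in water 1 to 5 and at 18.9, 8.74, 11.8, 15.7 and 9.07 CPM in α-KG 1 to 5. Water values lay close together, and α-KG 2 and α-KG 5 lay among them. Its log2 fold change was 0.59 ± 0.20 SE (edgeR, adjusted p = 0.103). Gbp4, the neighbour of Gbp9, was at 5.84, 3.92, 6.36, 5.53 and 6.29 CPM in water and at 9.37, 4.69, 5.20, 7.13 and 5.83 CPM in α-KG. As for Gbp9, α-KG 1 was the highest and α-KG 4 the next highest, but α-KG 2, 3 and 5 lay inside the water range and the log2 fold change was 0.21 ± 0.21 (adjusted p = 0.516). Parts of both genes are shared with neighbouring GBP genes: 8.05% of the 50-base windows of Gbp9 transcripts and 7.78% of those of Gbp4 also occur in transcripts of another gene.

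Gbp2, which coats pathogen vacuoles, was at 2.57, 3.48, 5.22, 3.42 and 3.43 CPM in water 1 to 5 and at 3.23, 2.52, 4.19, 7.13 and 8.42 CPM in α-KG 1 to 5. The libraries α-KG 4 and α-KG 5 stood above all water libraries, and α-KG 1, 2 and 3 lay below water 3. The log2 fold change was 0.46 ± 0.32 SE (adjusted p = 0.350, 95% interval -0.23 to 1.16). Gbp5, which promotes assembly of the Nlrp3 inflammasome, was at 1.95, 1.29, 1.39, 1.41 and 2.0 CPM in water and at 2.02, 1.63, 1.71, 3.33 and 2.16 CPM in α-KG. Here α-KG 4 was the highest library, and the log2 fold change was 0.41 ± 0.24 (adjusted p = 0.274). Iigp1 was at 0.371, 0.298, 0.853, 0.703 and 0.143 CPM in water and at 0.428, 0.790, 1.00, 0.760 and 1.66 CPM in α-KG, and had the largest fold change with the widest interval of the members (log2 0.88, 95% interval -0.12 to 1.87, adjusted p = 0.225).

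**Figure D2:**
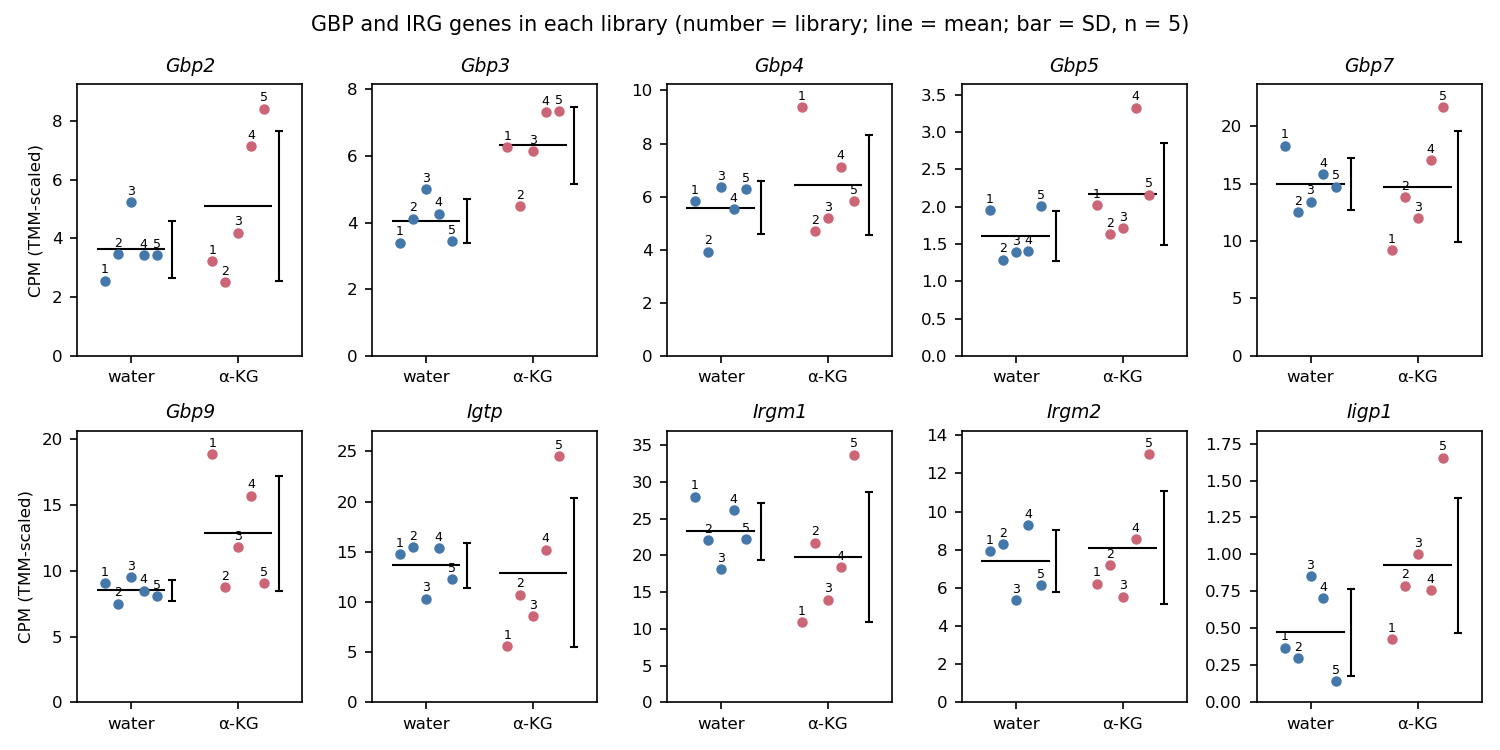
Levels of the 10 GBP and IRG members in CPM (y axis, from 0) in each water (blue) and α-KG (red) library. Points carry the library's number, lines are group means and bars the SD (n = 5). The groups overlap in every panel, and α-KG 5 is the highest library for 7 of the 10 genes.

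The IRG regulators and Gbp7 had similar group means with a wide spread in α-KG. Igtp was at 14.7, 15.5, 10.3, 15.3 and 12.3 CPM in water 1 to 5 and at 5.60, 10.7, 8.56, 15.2 and 24.5 CPM in α-KG 1 to 5. The α-KG libraries thus lay on both sides of the water range, from α-KG 1 below to α-KG 5 above, a ratio of 4.38 between highest and lowest. The log2 fold change was -0.09 ± 0.32 SE (adjusted p = 0.871, 95% interval -0.79 to 0.61). Irgm1 was at 28.0, 22.1, 18.1, 26.1 and 22.2 CPM in water and at 10.9, 21.7, 13.99, 18.4 and 33.7 CPM in α-KG. Irgm1 again had α-KG 1 lowest and α-KG 5 highest of all 10 libraries (log2 fold change -0.24 ± 0.26, adjusted p = 0.545).

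Irgm2 was at 7.94, 8.29, 5.36, 9.28 and 6.15 CPM in water 1 to 5 and at 6.22, 7.21, 5.55, 8.55 and 13.03 CPM in α-KG 1 to 5, with only α-KG 5 above the water range. Its log2 fold change was 0.12 ± 0.23 SE (adjusted p = 0.753) and was -0.12 without α-KG 5. Gbp7, which helps to recruit oxidase and autophagy proteins to bacteria, was at 18.3, 12.5, 13.4, 15.8 and 14.7 CPM in water and at 9.22, 13.8, 12.0, 17.0 and 21.7 CPM in α-KG. Here too α-KG 1 was the lowest and α-KG 5 the highest library (log2 fold change -0.03 ± 0.20, adjusted p = 0.935, 95% interval -0.47 to 0.41). Without α-KG 1 the log2 fold change of Igtp was 0.096 and that of Gbp7 0.094, in both cases with the opposite sign. The 95% intervals of these 4 genes run from -0.38 or lower to 0.32 or higher, so their p-values do not show that they were unchanged. Igtp and Irgm2 share windows with each other (11.8% of those of Igtp), and 12.7% of the windows of Gbp7 occur in another gene, mostly in Gm43802, a pseudogene that overlaps it on the same strand.

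**Figure D3:**
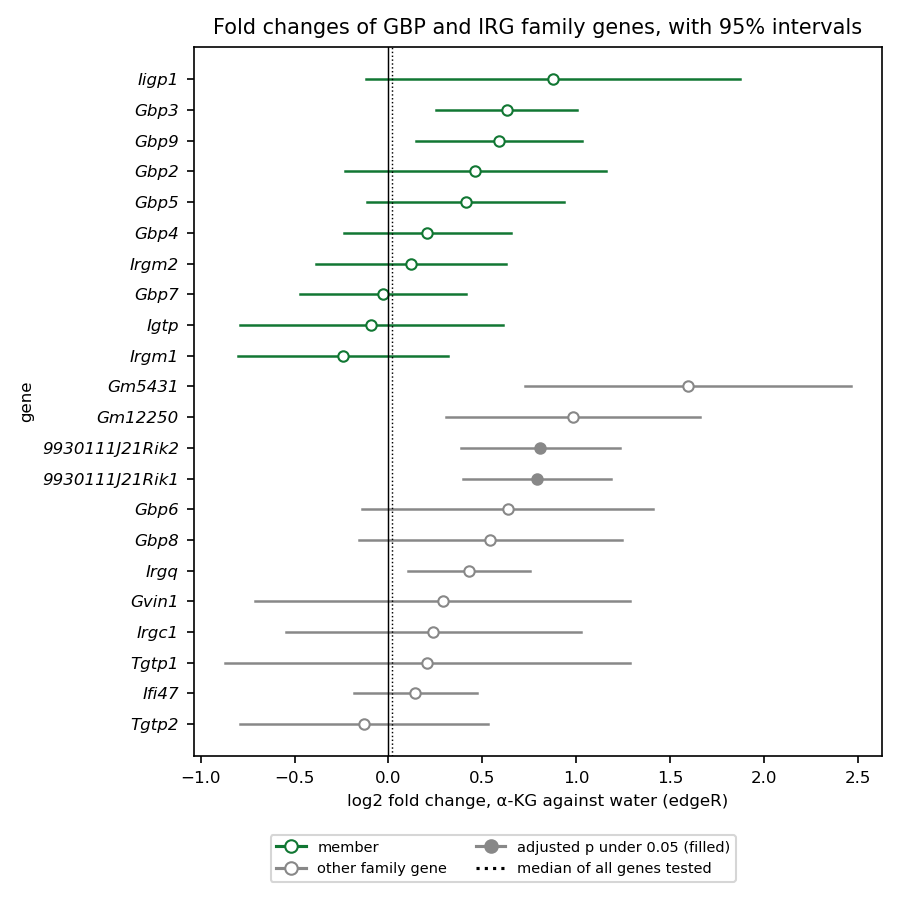
Log2 fold changes, α-KG against water (x axis), of the 10 members (green) and the 12 other family genes that passed the filter (grey), with 95% intervals from the edgeR fit. Filled points passed the threshold: none of the members and 9930111J21Rik1 and 9930111J21Rik2 among the others. The dotted line is the median of all genes tested.

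The members did not vary as 1 block from library to library. Over the 10 members, α-KG 5 was the highest of all libraries for 7, α-KG 1 for 2 (Gbp4 and Gbp9) and α-KG 4 for 1 (Gbp5), and no water library was the highest for any. The lowest library was α-KG 1 or water 2 for 3 members each. The SD of log2 CPM was larger in α-KG than in water for 9 of 10 members, with medians of 0.48 and 0.27, and for 71.5% of all genes tested, with medians of 0.35 and 0.26.

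Deviations of log2 CPM from each group's mean were compared between members over the 10 libraries, as a description that rests mainly on the α-KG libraries and on shared depth and scaling. Igtp, Irgm1 and Gbp7 had coefficients of 0.90 to 0.92 with each other, and Irgm2 0.75 to 0.88 with these 3. Gbp2 and Gbp3 had 0.86, and Gbp4 and Gbp9 had 0.82. Gbp9 ran opposite to Irgm1 (-0.71) and to Igtp (-0.57). These sets were seen in the values and are not tested.

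**Figure D4:**
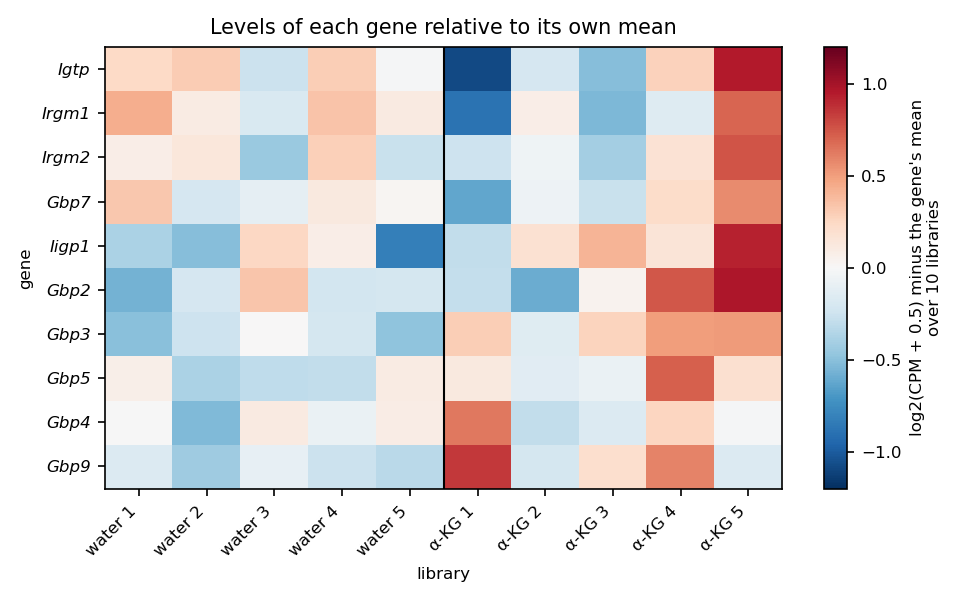
Level of each member in each library as log2(CPM + 0.5) minus the gene's own mean over the 10 libraries (red above, blue below), water on the left and α-KG on the right of the line. The rows of Igtp, Irgm1 and Gbp7 are darkest blue in α-KG 1 and darkest red in α-KG 5, whereas Gbp4 and Gbp9 are darkest red in α-KG 1.

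Outside the members, the 5 protein-coding genes whose deviations were most like the members' mean included Ifitm3 (0.93), Rtp4 (0.92), Mbip (0.91) and Trappc13 (0.90), of 11170 genes compared over the 10 libraries. Ifitm3 and Rtp4 are interferon-inducible. None of these 4 genes passed the edgeR test. The log2 fold changes were 0.63 for Ifitm3 (adjusted p = 0.0592), 0.47 for Rtp4 (0.168), 0.20 for Mbip (0.468) and 0.18 for Trappc13 (0.443).

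The libraries held marrow cell types: neutrophil markers summed to at least 2028 CPM and erythroid markers to at least 10488 CPM in every library. Markers of several blood cell types moved with the treatment or with single libraries. All 10 monocyte markers had log2 fold changes above 0 and 9 rose, and all 10 macrophage markers did and 5 rose. Their summed levels were 286 to 399 CPM in water and 392 to 783 in α-KG for monocytes, and 49.0 to 96.7 against 101 to 183 for macrophages. Of 14 T and NK cell markers 2 rose, with sums of 19.97 to 31.7 and 25.5 to 52.7 CPM. Of all genes tested, 2.39% rose. No marker of these 3 lists was at 0 in all libraries. On the log2(CPM + 1) scale the monocyte mean was 5.17, 4.68, 5.44, 5.73 and 5.51 in α-KG 1 to 5, and 4.09 to 4.69 in water. The mean over the 10 members was 2.72, 2.73, 2.75, 3.18 and 3.36 in α-KG 1 to 5, and 2.70 to 2.88 in water.

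Of the further lists, the B cell markers set α-KG 1 and α-KG 5 apart, and the erythroid markers α-KG 1. B cell markers had their highest mean in α-KG 1 (5.0) and their lowest in α-KG 5 (3.04), against 3.38 to 4.09 in water. Erythroid markers had their lowest mean in α-KG 1 (6.82), against 8.52 to 9.47 in the other α-KG libraries. Neutrophil means ran from 6.76 (water 5) to 7.87 (α-KG 3) and dendritic cell means from 1.98 (α-KG 3) to 2.78 (α-KG 5). Endothelial and stromal means ran from 1.75 (water 1) to 2.78 (α-KG 1). The part of these cell types in the levels of the members was not tested. In bulk RNA, more cells of a type and more RNA per cell cannot be told apart.

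With the monocyte mean as a covariate, 2 of 10 members had a log2 fold change above 0 and their median was -0.07. In that fit 7272 of 15126 genes were above 0, with a median of -0.01. With the T and NK mean it was 4 of 10 members with a median of -0.05, and 7733 of all genes with a median of 0.008. Both covariates were themselves higher in α-KG: 5.31 against 4.34 in water for the monocyte mean, 1.58 against 1.12 for T and NK. These fits therefore cannot separate the covariate from the treatment. Neither of these fits called any gene among all those tested, so the absence of calls among the members there says nothing particular to them.

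Of the 19 other GBP and IRG family genes, 12 passed the filter, 11 had a log2 fold change above 0, 2 rose and none fell, with a median of 0.49. Over all genes tested, 51.7% were above 0, 2.39% rose and the median was 0.02. The 12 genes are not fully separate measurements: 70.7% of the windows of Gbp6 and 99.2% of those of Gvin1 also occur in other genes. The 2 family genes that rose are GTPase genes of chromosome 11 that share much sequence, 9930111J21Rik1 (log2 fold change 0.79 ± 0.18 SE, adjusted p = 0.0431) and 9930111J21Rik2 (0.81 ± 0.20, adjusted p = 0.0487). The first shares 83.2% and the second 59.8% of its 50-base windows with other genes, mostly with each other. Summed, they were at 27.3, 25.0, 34.1, 26.6 and 26.3 CPM in water 1 to 5 and at 62.3, 31.6, 46.8, 62.1 and 40.7 CPM in α-KG 1 to 5. Only α-KG 2 fell below a water library, water 3, and the summed row had a log2 fold change of 0.80 ± 0.18 (adjusted p = 0.0403). The call of each of these genes held in 5 of its 19 alternatives, and the lowest log2 fold changes were 0.35 and 0.033, with the T and NK mean and the monocyte mean as a covariate. Fits with a covariate or without water 1, 2 or 4 or α-KG 4 called 0 of all genes.

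For 3 of these family genes all α-KG libraries were above all water libraries, as for 3.64% of all genes tested: Gm5431, Gm12250 and Irgq, with log2 fold changes of 1.59, 0.98 and 0.43 and adjusted p of 0.0552, 0.0852 and 0.104. They were picked for this after their values were seen. Gm5431 rests on 9 to 36 counts per library and shares 37.3% of its windows with other genes, 27.2% with 9930111J21Rik1. Gm12250, annotated as a processed pseudogene, rests on 4 to 27 counts per library. The effectors Tgtp1 and Tgtp2, known together as Irgb6, share 79.4% (Tgtp1) and 85.8% (Tgtp2) of their windows with each other and were summed, with means of 9.87 ± 2.28 CPM for water and 9.40 ± 4.30 CPM for α-KG (SD over 5 libraries, log2 fold change -0.09 ± 0.28 SE, adjusted p = 0.856). Their sum was lowest in α-KG 1 (4.86 CPM) and highest in α-KG 5 (15.8 CPM), the order also seen for Igtp and Irgm1.

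Upstream of the members, the interferon gamma receptor genes were higher in α-KG while the ligand was scarce. Ifng, the ligand gene, had 2 to 16 counts per library, 0.0993 to 0.50 CPM in water and 0.118 to 0.760 CPM in α-KG, and did not pass the filter. Ifngr1, which binds the ligand, was at 32.1, 29.99, 37.0, 27.1 and 25.9 CPM in water 1 to 5 and at 51.0, 36.2, 51.3, 56.9 and 49.3 CPM in α-KG 1 to 5. Only α-KG 2 lay within the water range, and Ifngr1 rose by 0.68 ± 0.14 SE on the log2 scale (adjusted p = 0.0309). Its call held in 7 of 18 alternatives.

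Ifngr2, the signalling subunit, was at 14.7, 16.1, 14.8, 15.3 and 15.4 CPM in water 1 to 5 and at 21.4, 18.8, 22.1, 20.9 and 27.6 CPM in α-KG 1 to 5, without overlap. It rose by 0.54 ± 0.11 SE (adjusted p = 0.0354), a call that held in 6 of 18 alternatives and ended without the filter on low counts (0.0641). Both receptor calls ended with each covariate (adjusted p = 0.161 to 0.9998). They also ended without water 1, 2, 4 or 5 or α-KG 1, 3, 4 or 5, with adjusted p of 0.0571 to 0.114 for Ifngr1 and 0.0582 to 0.112 for Ifngr2. The covariate fits called 0 of all genes and these left-out fits 0 to 149, against 413 in the main fit. The lost calls are therefore not particular to the receptors. Of the 20 genes of interferon gamma signalling, 17 were tested, 11 were above 0 with a median of 0.19, these 2 rose and none fell. Over all genes tested, 51.7% were above 0 and 2.39% rose. Jak1, Jak2 and Irf1 were at 0.05, -0.27 and 0.19 (adjusted p = 0.329 to 0.861). With the monocyte mean as a covariate, Ifngr1 stood at 0.14 and Ifngr2 at 0.31.

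Of 22 other targets of interferon gamma 16 were tested, 13 were above 0 with a median of 0.37, 4 rose and none fell. Over all genes tested, 51.7% were above 0 and 2.39% rose. The lowest target stood at -0.73. At an unadjusted p under 0.05 there were 9 targets, 8 of them higher, where 27.8% of genes passed, 16.3% as higher. Psmb10 and Psmb8, subunits of the immunoproteasome, rose by 0.72 ± 0.14 SE and 0.63 ± 0.15 (adjusted p = 0.0278 and 0.0445). Nlrc5 and Ciita, the transactivators of MHC class I and class II genes, rose by 0.70 ± 0.17 and 1.64 ± 0.39 (adjusted p = 0.0489 for both). Ciita was at 4.86 to 11.9 CPM in water and at 45.3, 8.49, 19.2, 26.6 and 15.7 CPM in α-KG 1 to 5, highest in α-KG 1, where the B cell markers were also highest. The chemokine gene Cxcl10 was at -0.43 ± 0.21 (adjusted p = 0.208), and Cxcl9 had 0 to 11 counts per library and was not tested. With limma voom or either other scaling 1 of these targets was called. The 4 calls ended without water 1, 2, 4 or 5 or without α-KG 1, 3, 4 or 5. Those fits called 0 to 149 of all genes, against 413 with all libraries, so this loss is not particular to the targets. Without α-KG 2, 8 targets were called as higher and 1 as lower, in a fit that called 17.4% of genes. DESeq2 called 4 targets as higher and 1 as lower, where it called 10.4% of genes.

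**Figure D5:**
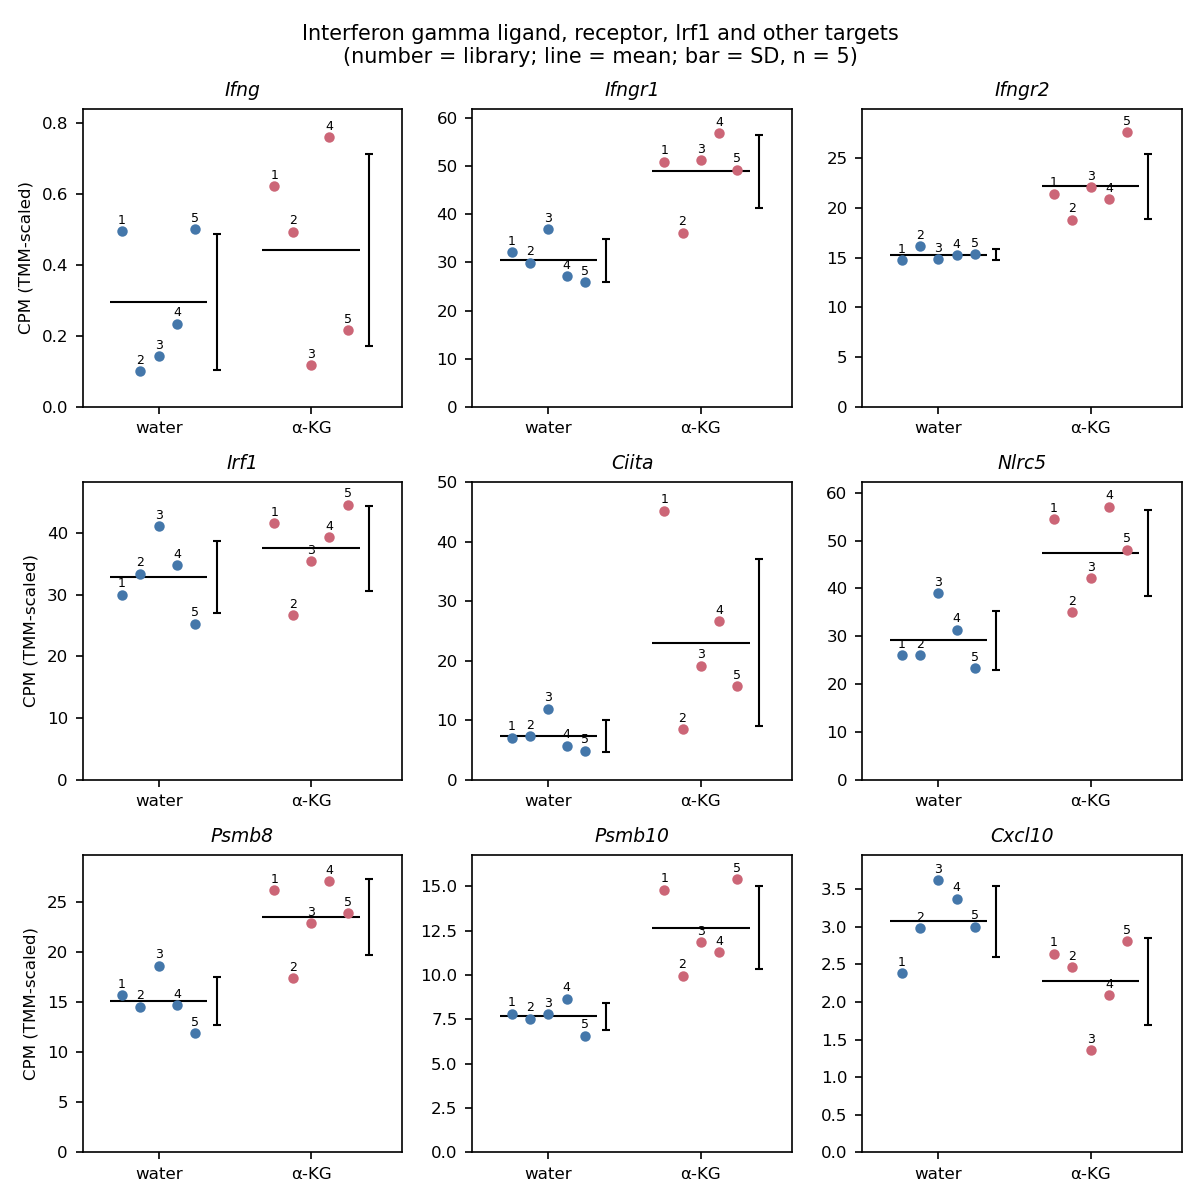
Levels in CPM (y axis, from 0) of the ligand gene Ifng, the receptor genes Ifngr1 and Ifngr2, the factor Irf1 and 5 other interferon gamma targets in each library, drawn as for the members (lines are means, bars the SD, n = 5). Ifngr2 and Psmb10 are the panels where all α-KG libraries lie above all water libraries.

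Of 20 genes whose products work with GBP and IRG proteins, from the autophagy conjugation system to inflammasomes, 0 passed the test (edgeR), 4 were at an unadjusted p under 0.05 and DESeq2 called 1. The shares of all genes were 2.73%, 27.8% and, with DESeq2, 10.4%. The median log2 fold change of the 20 genes was 0.07, with 12 above 0, where 51.7% of all genes were above 0. The smallest p-values belonged to Gsdmd, which encodes the pore-forming gasdermin D (0.47 ± 0.14 SE, adjusted p = 0.0735), Nlrp1b (0.82 ± 0.29), Casp1 (0.57 ± 0.20) and Gabarapl1 (-0.42 ± 0.16), the last 3 with adjusted p of 0.104 to 0.124. Casp1 encodes the protease that activates gasdermin D, Nlrp1b an inflammasome sensor, and Gabarapl1 a ubiquitin-like protein of autophagosomes.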

How the data were processed

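The authors deposited 1 table of expected counts per gene, unscaled between libraries, with 10.3% of values not whole. The submitters' processing notes name bcl2fastq, DRAGEN and the build GRCm38. Which quantifier, annotation release and strand setting the authors used is not stated in the labels or the file. Ribosomal RNA had been removed with RNase H, per the labels' protocols. Library totals ran from 14291332 to 22490088 counts after rounding to whole numbers, and libraries of a group differed by more than counting error.

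All 10 libraries were used. Genes kept by filterByExpr (minimum count 10, minimum total 15) entered edgeR's quasi-likelihood test (version 4.0.16, R 4.3.3, TMM scaling, robust, two-sided), with Benjamini-Hochberg adjustment over 15126 genes and a threshold of 0.05. The steps were tested on simulated counts. SE was derived from each log2 fold change and its F value. CPM are TMM-scaled, and levels per kilobase use GENCODE M21 exon lengths. List means use log2(CPM + 1), and deviations log2 CPM with a prior count of 2. Shared windows were counted over GENCODE M21 transcripts.

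Alternatives were DESeq2 1.42.0, limma 3.58.1 voom, other scalings, no filter, covariates, summed copies and each library left out. Members and lists were chosen with earlier results of these data known. Named genes are all members, Ifng, Ifngr1, Ifngr2, Irf1, Ciita, Cxcl9, Cxcl10, the called genes of each list or its 4 smallest p-values, and those most like the members' mean (1 gene under this rule is not reported here); Jak1, Jak2, Tgtp1, Tgtp2, Gm5431, Gm12250 and Irgq were added after their values were seen.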

Additional observations from a re-analysis of the deposited data

Results flagged for a closer look

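Of 82 groups of 5 values examined, for 32 named genes and 9 lists in both groups, 1 held a library far from the others, and chance alone gives about 1 in 20. For Nlrp1b, water 3 had 4.33 CPM, while the other water libraries had 1.64 to 2.33 CPM, a gap of 0.744 of the group's range.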

How the results depend on the processing

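No paired analysis was possible because the labels carry no number shared between the groups. Counts of calls moved with 1 library. With each library left out in turn, calls ranged from 0 to 2 among the members, 0 to 4 among other family genes, 0 to 2 in signalling, 0 to 9 among other targets, 0 to 3 among partners and 0 to 2683 over all genes. The highest counts came without α-KG 2, and all genes gave 0 without water 1, 2 or 4 or α-KG 4. DESeq2 called 1 member, 1 partner and 1657 of all genes (969 higher and 688 lower, against 361 and 52 with edgeR), and voom called 0 other family genes, 1 other target and 273 of all genes. Both other scalings called 0 other family genes and 1 other target, and without the filter 1 signalling gene was called. With the protein-coding share, the monocyte mean or the T and NK mean as a covariate, calls were 0 in the family, signalling and target lists and over all genes, with 3457, 172 and 340 of all genes at an unadjusted p under 0.05.

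Some log2 fold changes turned sign; the cause was not tested. With the monocyte mean as a covariate these were Gbp2 (-1.17), Gbp3 (-0.082), Gbp4 (-0.025), Irgm2 (-0.031), Iigp1 (-0.049), Irf1 (-0.41), Gsdmd (-0.070), Nlrp1b (-0.35), Casp1 (-0.13), Ifitm3 (-0.018), Rtp4 (-0.34), Mbip (-0.20), Trappc13 (-0.19) and Tgtp1 (-0.64). With the T and NK mean they were Gbp2 (-0.50), Gbp4 (-0.27), Gbp5 (-0.073), Irf1 (-0.22), Nlrp1b (-0.033), Rtp4 (-0.012), Mbip (-0.034), Trappc13 (-0.062) and Tgtp1 (-0.81). Gbp7 stood at 0.018 with the protein-coding share, and Tgtp1 at -0.088 summed with Tgtp2, an alternative chosen after seeing the data. With each library left out, Gbp7 ranged from -0.21 to 0.094, Igtp from -0.46 to 0.096, Irgm2 from -0.12 to 0.23, Tgtp1 from -0.10 to 0.43 and Tgtp2 from -0.44 to 0.051. The upper ends of Gbp7, Igtp and Tgtp2 came without α-KG 1, and their lower ends and that of Irgm2 without α-KG 5. Depth limits Iigp1, Ifng and Cxcl9, which had 24 counts or fewer in every library.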
